A study of Homo sapiens with 6 samples.

Results

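The E2F family and its DP partners are transcription factors that time entry into S phase, and all 10 of their genes (E2F1 to E2F8, TFDP1 and TFDP2) were picked by symbol from the 30618 genes of the count table. E2F1, E2F2 and E2F3 are classed as activators, E2F4 to E2F8 as repressors, and TFDP1 and TFDP2 encode the DP proteins. The libraries were made from ARPE-19, an established line of human retinal pigment epithelium, kept in 50 mM glucose as a model of the diabetic retina. The 3 NC libraries came from cells given a non-targeting siRNA and the 3 siEIF1 libraries from cells given an siRNA against EIF1, the factor that helps the ribosome select its start codon. No library without high glucose or without transfection was compared here, and the findings are those of 1 cell line and 1 targeting siRNA.

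E2F1 to E2F6 bind DNA as heterodimers with a DP protein, whereas E2F7 and E2F8 bind it without one. In resting cells the retinoblastoma protein holds the activators and its relatives p107 and p130 work with E2F4 and E2F5, and cyclin-dependent kinases release the activators late in G1. E2F6 acts through a Polycomb complex, and E2F7 and E2F8 are induced in S phase and turn E2F targets off again. In the retinal pigment epithelium most cells have left the cell cycle, while ARPE-19 cells divide in culture.

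E2F1 and E2F2, both activators, fell to 0.278 and 0.251 of their NC level after EIF1 knockdown, with log2 fold changes of -1.84 ± 0.116 (SE, n = 3 libraries per group) and -1.99 ± 0.372. The third activator, E2F3, fell by 0.28 ± 0.0755 on the log2 scale, close to the changes of the repressors E2F4 and E2F6, which fell by 0.25 ± 0.0539 and 0.32 ± 0.0759. E2F7 fell by 0.67 ± 0.169, while E2F5, TFDP1 and TFDP2 did not pass the test and E2F8 had too few reads to be tested. Of the 9 members tested, 6 were lower with an adjusted p under 0.05 in edgeR's quasi-likelihood test, against 10.4% of the 16749 genes tested. By the same test 0 members were higher, against 10.2% of genes, and 0 were higher at an unadjusted p under 0.05, with DESeq2 or with limma. Only E2F1 and E2F2 also had a fold below 0.5, which 1.31% of tested genes did. The calls for E2F3, E2F6 and E2F7 were lost when particular libraries were left out, as given beside each gene.

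The libraries held 26499929 to 31431479 counts each. EIF1, the target, had FPKM values (fragments per kilobase of gene and of library depth) of 294, 281 and 281 in NC and 24.3, 22.7 and 23.5 in siEIF1, a log2 fold change of -3.58 (edgeR adjusted p = 1.08e-13). Of 14 retinal pigment epithelium markers, 10 could be tested: OTX2 stood at 17.5 to 19.2 FPKM and MITF at 5.46 to 5.89 FPKM over all libraries. BEST1 stood at 38.8 to 70.8 FPKM. Overlap of the markers with genes on the other strand was not examined, and the strand setting of the counting is not given. The pigment enzymes TYR and TYRP1 were at 0.12 FPKM or less, and RPE65 and TTR were absent from the 30618 genes of the count table. Of the 10 tested markers 3 were higher in siEIF1 and 0 lower, against 10.2% and 10.4% of all tested genes. They were KRT8 and KRT18, keratins of simple epithelium, and RLBP1, a visual cycle protein. Their log2 fold changes were 0.24, 0.25 and 1.55 (edgeR adjusted p = 0.0095, 0.00442 and 0.00102), and RLBP1 stood at only 0.17 to 0.27 FPKM in NC. The log2 fold change was negative for 4 markers, among them LRAT (-0.40) and BEST1 (-0.32), which did not pass (edgeR adjusted p = 0.333 and 0.106). KRT8 did not pass without NC 1 or siEIF1 2 (0.0505 and 0.0528). The part of these markers in the E2F values was not tested. The 6 markers of immune, endothelial, glial and other epithelial cells that were measured summed to 0.02 to 0.1 FPKM, and none could be tested.

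The promoters of E2F1, E2F2, E2F3 and E2F7 are shown because these are the activators and, of the repressors that could be tested, the one with the lowest log2 fold change. Each is 300 bases around the gene start from RefSeq, on GRCh38.p14, 5′ to 3′ along the gene's own strand, with capitals at every exact match, on either strand, to the 4 E2F words searched (TTTCCCGC, TTTCGCGC, TTTGCCGC and TTTGGCGC). E2F1 is on the reverse strand at chr20:33686336-33686635, E2F2 on the reverse strand at chr1:23531184-23531483, E2F3 on the forward strand at chr6:20401629-20401928 (the first of its 2 promoters) and E2F7 on the reverse strand at chr12:77065520-77065819.
E2F1: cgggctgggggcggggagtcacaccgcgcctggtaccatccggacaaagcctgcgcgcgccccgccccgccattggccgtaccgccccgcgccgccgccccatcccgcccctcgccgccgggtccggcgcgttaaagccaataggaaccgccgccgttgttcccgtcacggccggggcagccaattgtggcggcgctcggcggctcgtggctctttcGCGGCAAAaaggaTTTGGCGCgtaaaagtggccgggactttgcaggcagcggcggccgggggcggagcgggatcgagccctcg
E2F2: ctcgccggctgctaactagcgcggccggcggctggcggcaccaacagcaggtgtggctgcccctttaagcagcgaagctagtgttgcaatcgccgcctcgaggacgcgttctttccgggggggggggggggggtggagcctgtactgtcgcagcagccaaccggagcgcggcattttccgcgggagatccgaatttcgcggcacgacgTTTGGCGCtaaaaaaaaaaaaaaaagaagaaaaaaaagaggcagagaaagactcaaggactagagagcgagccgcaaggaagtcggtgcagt
E2F3: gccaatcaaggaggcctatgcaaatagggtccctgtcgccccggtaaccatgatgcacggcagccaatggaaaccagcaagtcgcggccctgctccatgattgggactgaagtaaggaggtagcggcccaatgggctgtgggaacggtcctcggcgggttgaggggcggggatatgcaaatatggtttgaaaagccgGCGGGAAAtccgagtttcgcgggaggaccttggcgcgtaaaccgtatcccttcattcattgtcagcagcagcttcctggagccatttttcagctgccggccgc
E2F7: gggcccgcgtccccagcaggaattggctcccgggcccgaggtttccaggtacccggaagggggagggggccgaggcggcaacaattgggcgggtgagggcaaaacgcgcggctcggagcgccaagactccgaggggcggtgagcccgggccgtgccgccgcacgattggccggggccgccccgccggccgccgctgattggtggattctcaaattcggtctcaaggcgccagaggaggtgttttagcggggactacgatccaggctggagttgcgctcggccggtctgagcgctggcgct

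Both E2F1 matches lie close to the start of the gene, TTTGCCGC on the opposite strand at position -33 and TTTGGCGC at -20, counted from the gene start to the first base of the word. E2F2 held TTTGGCGC at position -42 and E2F3 held TTTCCCGC on the opposite strand at -53. E2F7 held no such word. CCAAT, the word bound by NF-Y, occurred 4 times in E2F7, 4 times in E2F3, 3 times in E2F1 and 0 times in E2F2, and 34.6% of all promoters hold it at least once on either strand and 10.8% at least 2 times. TFDP1 held 1 E2F word, while the promoters of E2F4, E2F6 and TFDP2 and the second promoter of E2F3 held 0. Those of E2F5 and E2F8 were not analysed here. Among 35116 promoters of the same length in the table, 3.31% held at least 1 E2F word and 0.145% held 2 or more, as E2F1 did. A match describes letters in a window and is not evidence of binding.

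E2F1, an activator of S-phase genes that can also trigger apoptosis, is at chromosome 20, 33675477 to 33686385 on the reverse strand (GRCh38). Its counts were 406, 387 and 373 in NC and 114, 101 and 136 in siEIF1, which is 4.64, 4.10 and 4.07 FPKM against 1.1, 1.02 and 1.4 FPKM. Every siEIF1 library lay far below every NC library, and the spread within each group was small beside the gap. Its mean was 4.27 ± 0.321 FPKM (SD, n = 3) in NC and 1.17 ± 0.200 FPKM in siEIF1. The log2 fold change of -1.84 (95% interval -2.07 to -1.62, edgeR adjusted p = 5.00e-07) ranked 26 from the lowest among 16749 genes. The call held in all 14 alternatives run. In bulk RNA, fewer cells in the phase that expresses a gene and less RNA per cell cannot be told apart, which holds for every gene described here.

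E2F2, a close relative of E2F1 on chromosome 1 from 23506438 to 23531233 (reverse strand), was barely expressed. Its counts were 36, 27 and 19 in NC and 6, 8 and 8 in siEIF1, or 0.20, 0.14 and 0.10 FPKM against 0.03, 0.04 and 0.04 FPKM. The groups did not overlap, although the NC libraries themselves spread from 19 to 36 counts. Its log2 fold change was -1.99 (95% interval -2.72 to -1.27, edgeR adjusted p = 0.00204), rank 16 from the lowest. Scaled by library size, the 22 siEIF1 counts were 0.248 of the 82 NC counts (95% exact interval 0.148 to 0.401, counting error only). With so few reads the size of this fold is less certain than that of E2F1, and the intervals of both genes overlap.

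E2F3 is at chromosome 6, 20401879 to 20493714 on the forward strand and makes a long and a short protein from separate promoters, which gene counts cannot separate. Its counts were 664, 616 and 626 in NC and 583, 519 and 593 in siEIF1. In FPKM this was 3.94, 3.39 and 3.54 against 2.93, 2.72 and 3.16. All siEIF1 libraries were below all NC libraries, but siEIF1 3 lay near the lowest NC library. The log2 fold change of -0.28 (95% interval -0.43 to -0.14, edgeR adjusted p = 0.0172) missed the threshold without NC 1 (adjusted p = 0.0772) and without siEIF1 2 (0.0812), and with limma on log2(FPKM + 1) and log2(FPKM + 0.1) (0.0564 and 0.0513). Its interval did not overlap those of E2F1 and E2F2. The ratio of E2F1 to E2F3 FPKM was 1.18, 1.21 and 1.15 in NC and 0.375, 0.375 and 0.443 in siEIF1. The order of these 2 activators turned over in FPKM only. In CPM, which is not scaled to gene length, the mean of E2F3 was above that of E2F1 in NC (22.9 against 14.0) and in siEIF1 (18.8 against 3.90).

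**Figure D1:**
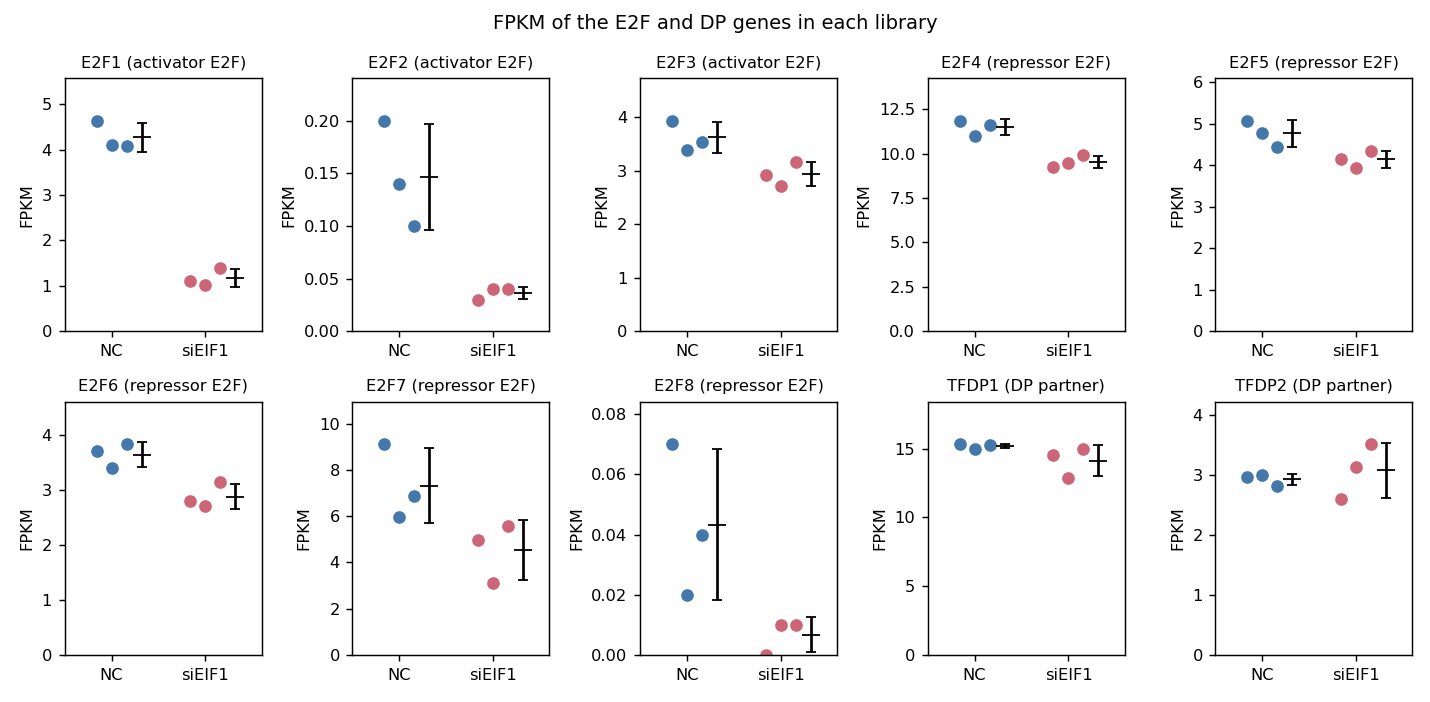
FPKM (y axis, from 0, scaled per panel) of each E2F and DP gene in the 3 NC and 3 siEIF1 libraries (points, in order of library number), with the mean ± SD of each group beside them. E2F1 stands at 4.07 to 4.64 FPKM in NC and 1.02 to 1.4 FPKM in siEIF1, while the groups of TFDP1 and TFDP2 overlap.

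Among the repressors, E2F4 had the highest mean FPKM of all E2F genes. It is the E2F that occupies promoters with p130 in resting cells, and is at chromosome 16, 67192155 to 67198918 on the forward strand. Its FPKM values were 11.87, 10.99 and 11.61 in NC and 9.25, 9.49 and 9.92 in siEIF1, from 1388, 1386 and 1421 and 1277, 1256 and 1290 counts. The groups were tight and did not overlap. Its log2 fold change was -0.25 (95% interval -0.35 to -0.14, edgeR adjusted p = 0.00577), and the call held in all 14 alternatives run.

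E2F5, the other partner of the p107 and p130 pocket proteins, is at chromosome 8, 85177154 to 85217158 on the forward strand. It had 990, 1008 and 906 counts in NC and 957, 868 and 940 in siEIF1, or 5.08, 4.79 and 4.44 FPKM against 4.16, 3.93 and 4.34 FPKM. All siEIF1 libraries were below all NC libraries, by a small margin between siEIF1 3 and NC 3. Such a separation was found in CPM for 18.9% of tested genes. The log2 fold change of -0.18 (95% interval -0.31 to -0.06) did not pass edgeR's test (adjusted p = 0.0651), and passed it without NC 3 (adjusted p = 0.036). RBIS, a gene on the other strand with a mean of 1041 counts, shares 3111 bases with E2F5, and the strand setting of the counting is not given in the sources used here.

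E2F6, which silences genes through a Polycomb complex and does not bind pocket proteins, is at chromosome 2, 11444375 to 11466177 on the reverse strand. Its counts were 489, 483 and 530 in NC and 437, 405 and 461 in siEIF1, or 3.70, 3.39 and 3.83 FPKM against 2.80, 2.70 and 3.14 FPKM. The groups did not overlap. The log2 fold change was -0.32 (95% interval -0.47 to -0.17, edgeR adjusted p = 0.00958). Without NC 3 the adjusted p was 0.0504.

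E2F7, an atypical repressor with a pair of DNA-binding domains, is at chromosome 12, 77021248 to 77065569 on the reverse strand. Its counts were 1862, 1318 and 1469 in NC and 1201, 717 and 1269 in siEIF1, or 9.11, 5.98 and 6.86 FPKM against 4.97, 3.10 and 5.58 FPKM. NC 1 was the high library and siEIF1 2 the low one, and the remaining libraries of the groups lay close together without overlapping. The log2 fold change was -0.67 (95% interval -1.0 to -0.34, edgeR adjusted p = 0.0134), rank 3.09% from the lowest. It was -0.48 without NC 1, where the adjusted p was 0.0825. The call was also lost with DESeq2 (adjusted p = 0.0835) and with limma on log2(FPKM + 1) and log2(FPKM + 0.1) (0.0743 and 0.0713). Without siEIF1 2 it was -0.47 and still passed (adjusted p = 0.0448).

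E2F8, the other atypical repressor, is at chromosome 11, 19224063 to 19241620 on the reverse strand and was close to the detection limit. It had 10, 3 and 6 counts in NC and 0, 2 and 1 in siEIF1, or 0.07, 0.02 and 0.04 FPKM against 0.00, 0.01 and 0.01 FPKM. The groups did not overlap, on 19 reads against 3. Scaled by library size the ratio of siEIF1 to NC was 0.146 (95% exact interval 0.0277 to 0.496, counting error only). It was removed by the filter on low counts. An antisense gene, CSRP3-AS1, spans all 17558 bases of it, so that the strand of these reads is uncertain.

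**Figure D2:**
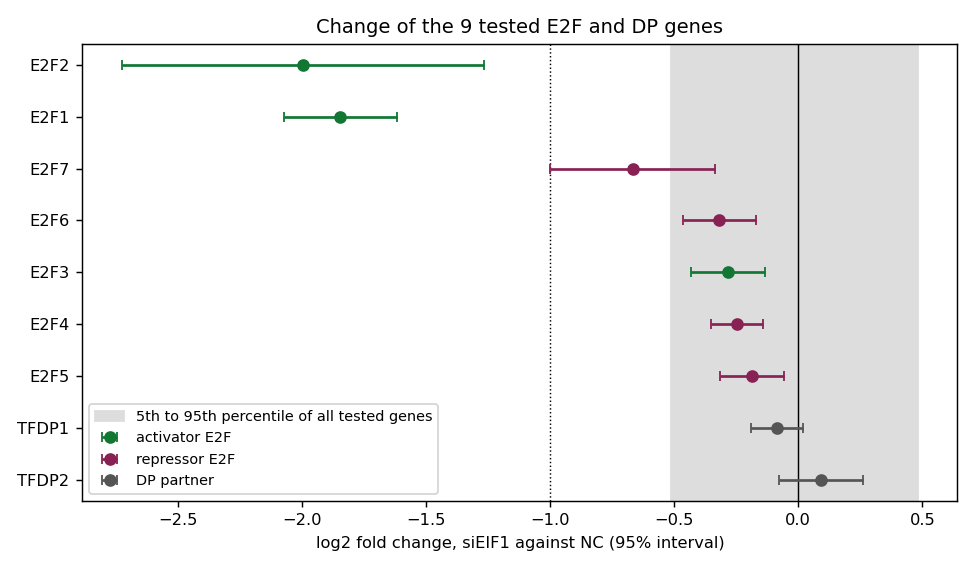
Log2 fold change of the 9 tested members, siEIF1 against NC (x axis), with 95% intervals, coloured by role. The grey band is the range from the 5th to the 95th percentile of all 16749 tested genes (-0.51 to 0.48), the dotted line a fold of 0.5, and E2F1, E2F2 and E2F7 lie left of the band.

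TFDP1 encodes the main DP protein and was the most abundant of the 10 genes per length. It is at chromosome 13, 113584721 to 113641473 on the forward strand. Its FPKM values were 15.3, 14.99 and 15.2 in NC and 14.5, 12.9 and 15.0 in siEIF1. The groups overlapped in FPKM, with siEIF1 2 the low library. In CPM they did not overlap, with 70.2, 69.1 and 68.8 in NC and 67.1, 61.0 and 68.0 in siEIF1. The log2 fold change was -0.08 (95% interval -0.19 to 0.02, edgeR adjusted p = 0.304). TFDP2, which encodes the second DP protein, is at chromosome 3, 141944428 to 142149544 on the reverse strand. It stood at 2.96, 3.0 and 2.82 FPKM in NC and 2.59, 3.13 and 3.51 FPKM in siEIF1, where it spread more than in NC. Its log2 fold change was 0.09 (95% interval -0.08 to 0.26, edgeR adjusted p = 0.507). Without siEIF1 1 it was 0.20 with an adjusted p of 0.0414, the 1 setting in which a member was higher. For both DP genes the intervals leave room for small changes in level.

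Summed per length, the activators stood at 8.78, 7.63 and 7.71 FPKM in NC and 4.06, 3.78 and 4.6 FPKM in siEIF1, 51.6% of the NC mean. The repressors stood at 29.8, 25.2 and 26.8 FPKM in NC and 21.2, 19.2 and 23.0 FPKM in siEIF1, 77.5% of the NC mean. On the FPKM scale the repressor sum, which includes E2F5 with its overlap by RBIS, exceeded the activator sum in every library. Neither sum overlapped between groups, which follows from each E2F gene being lower in FPKM in all siEIF1 libraries than in all NC libraries. The gene lengths behind FPKM are not given in the sources used here, so ratios and orders of different genes hold on that scale only. The ratio of activators to repressors was 0.294, 0.303 and 0.288 in NC and 0.192, 0.197 and 0.200 in siEIF1. No test was run on these sums, because the members were chosen with results known. Within the activators the larger part of the drop was that of E2F1, from a mean of 4.27 to 1.17 FPKM, beside 3.62 to 2.94 FPKM for E2F3, and E2F2 was 0.412% of the summed E2F FPKM in NC. E2F1 made up 12.1% ± 0.358 (SD, n = 3) of the summed E2F FPKM in NC and 4.62% ± 0.394 in siEIF1. E2F4 made up 32.6% ± 1.64 and 37.9% ± 2.87. The mean shares of E2F3 (10.3% to 11.6%), E2F5 (13.5% to 16.4%) and E2F6 (10.3% to 11.4%) rose as well. Those of E2F2, E2F7 and E2F8 fell, E2F7 from 20.6% to 17.8%.

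The DP genes together stood at 18.28, 17.99 and 18.07 FPKM in NC and 17.1, 16.01 and 18.51 FPKM in siEIF1, and the groups overlapped. The E2Fs that need a DP partner, E2F1 to E2F6, summed to 29.4, 26.8 and 27.6 FPKM in NC and 20.3, 19.9 and 22.0 FPKM in siEIF1. The ratio of the DP sum to the E2F1 to E2F6 sum in FPKM was 0.621, 0.671 and 0.655 in NC and 0.844, 0.805 and 0.841 in siEIF1. This ratio did not overlap between groups and was not tested. Each of E2F1 to E2F6 in its denominator was itself lower in FPKM in all siEIF1 libraries than in all NC libraries.

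**Figure D3:**
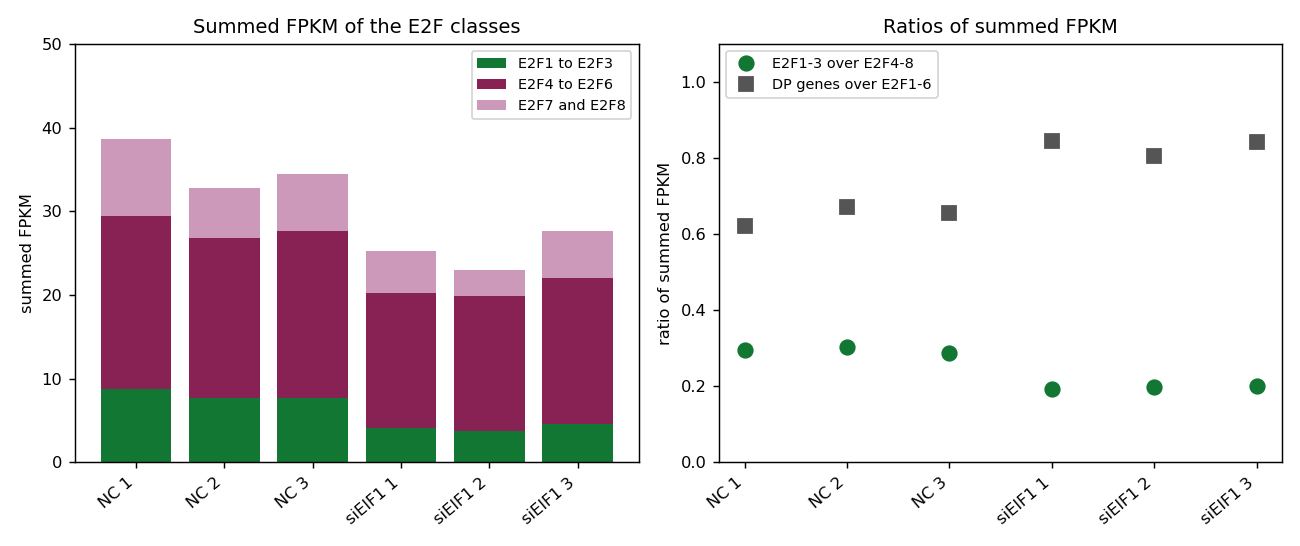
Left, FPKM summed over E2F1 to E2F3, E2F4 to E2F6, and E2F7 with E2F8, stacked for each library. Right, ratios of summed FPKM in each library: activators over repressors (circles) are 0.288 to 0.303 in NC and 0.192 to 0.200 in siEIF1, and DP genes over E2F1 to E2F6 (squares) are 0.621 to 0.671 and 0.805 to 0.844.

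In order of mean FPKM, NC ran from TFDP1 (15.2) through E2F4 (11.5), E2F7 (7.32), E2F5 (4.77), E2F1 (4.27), E2F6 (3.64), E2F3 (3.62) and TFDP2 (2.93) to E2F2 (0.147) and E2F8 (0.0433). The ranges of E2F5 and E2F1, and those of E2F6 and E2F3, overlapped. In siEIF1 the order was TFDP1 (14.1), E2F4 (9.55), E2F7 (4.55), E2F5 (4.14), TFDP2 (3.08), E2F3 (2.94), E2F6 (2.88), E2F1 (1.17), E2F2 (0.0367) and E2F8 (0.00667). E2F1 moved from place 5 to place 8 in FPKM, below E2F6, E2F3 and TFDP2, although in CPM its mean was below theirs in both groups. The FPKM ranges of E2F7 and E2F5, and those of TFDP2, E2F3 and E2F6, overlapped in siEIF1.

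Upstream of the E2Fs, 9 of 17 tested genes of the retinoblastoma axis were lower and 1 was higher, against 10.4% and 10.2% of all tested genes, with a median log2 fold change of -0.20 against 0.0033. RB1, the pocket protein that binds the activators, had a log2 fold change of -0.17 and RBL1, which encodes p107 and is itself an E2F target, of -0.51 (edgeR adjusted p = 0.0315 and 0.00164). The call for RB1 was lost with DESeq2 (adjusted p = 0.0534) and whenever a library other than NC 1 was left out (0.0547 to 0.108). RBL2, which encodes p130, did not pass (log2 fold change 0.15, adjusted p = 0.12), and its FPKM values were 3.96, 4.52 and 4.57 in NC and 4.87, 4.59 and 4.77 in siEIF1. CCND1, the D cyclin that starts the release of E2F from the retinoblastoma protein, fell from 193, 176 and 192 FPKM to 75.9, 72.6 and 95.6 FPKM, a log2 fold change of -1.18 (edgeR adjusted p = 6.61e-07). Those of CCNE1 and CCNE2, the E cyclins that act after it and are E2F targets too, were -0.82 and -1.82 (edgeR adjusted p = 6.09e-04 and 3.03e-05). CDKN2B, which inhibits the D cyclin kinases and has an antisense RNA gene across it, was the 1 that rose, from 10.2, 8.22 and 10.0 FPKM to 14.6, 12.3 and 14.8 FPKM (log2 fold change 0.57, adjusted p = 2.09e-04).

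Genes that E2Fs are known to activate at G1/S fell almost without exception, and these cell-cycle genes were already known to be lower in these libraries when the list was written, so the count is no independent evidence. All 43 had a negative log2 fold change, 42 passed edgeR's test and 20 also had a fold below 0.5, with a median of -0.94. Over all tested genes 10.4% were lower and 1.31% also had a fold below 0.5. The lowest were the origin-firing factor MCM10 (-2.53), the checkpoint mediator CLSPN (-2.36) and the origin-licensing factor CDC6 (-2.07), with edgeR adjusted p of 4.26e-05, 1.43e-06 and 2.62e-06. CDC6 stood at 2.81, 2.02 and 2.06 FPKM in NC and 0.49, 0.43 and 0.71 FPKM in siEIF1. Closest to 0 among those that passed were SLBP, which binds histone mRNA, and TYMS, which makes thymidylate (both -0.22), the latter not passing without NC 2 (adjusted p = 0.061). CDC25A, the phosphatase that activates CDK2, did not pass (-0.27, adjusted p = 0.155).

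The factors that take over from the E2Fs later in the cycle are the MuvB core with MYBL2 and FOXM1. Of these 7 genes 5 were lower and 0 higher, against 10.4% and 10.2% of all tested genes (0 higher also at an unadjusted p under 0.05 and with DESeq2 or limma). MYBL2, the B-Myb protein and an E2F target, fell from 2.89, 2.94 and 2.51 FPKM to 0.96, 0.72 and 0.92 FPKM (log2 fold change -1.66, edgeR adjusted p = 1.98e-06). FOXM1, which drives G2/M genes, fell from 3.58, 3.76 and 3.85 FPKM to 1.51, 1.93 and 1.61 FPKM (-1.12, adjusted p = 3.38e-06). The MuvB subunits LIN9, LIN52 and LIN54 had log2 fold changes of -0.57, -0.57 and -0.33 and passed the test. The call for LIN9 was lost without NC 1 or siEIF1 2 (adjusted p = 0.123 and 0.109), and that for LIN54 without any library but NC 1 and siEIF1 1 (0.064 to 0.214). LIN54 was also lost with DESeq2 (adjusted p = 0.0523) and limma (0.125 and 0.131), and LIN9 with limma on log2(FPKM + 0.1) (0.0508), so that DESeq2 called 4 of the 7 lower and limma 4 and 3.

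Of the 10 genes of the E2F6 Polycomb complex 1 was lower, near the 10.4% of all tested genes: RNF2, its ubiquitin ligase (-0.45, edgeR adjusted p = 6.40e-04), and the list's median was -0.04. Of 6 germline genes that E2F6 keeps silent, 1 had enough reads to test: STAG3, a meiotic cohesin subunit, with a log2 fold change of 0.20 (adjusted p = 0.627). The 6 summed to 0.14 to 0.2 FPKM in NC and 0.13 to 0.21 FPKM in siEIF1, so that no rise was detectable at this depth. Of 13 genes for cofactors and modifiers of E2Fs, 1 was lower, again near the 10.4% of all tested genes. It was CCNF, a subunit of a ubiquitin ligase for E2F1 (-0.54, adjusted p = 0.0436). Its call was lost without NC 1, NC 2, siEIF1 2 or siEIF1 3 (0.0842 to 0.166) and with limma (0.0794 and 0.092). In these lists 0 genes were higher by edgeR, DESeq2 or limma and 2, both cofactors, at an unadjusted edgeR p under 0.05. Without siEIF1 3 edgeR called 2 cofactors higher, and it called 1 without siEIF1 1 and with at least 10 counts per library. Of 7 tested genes through which E2F1 promotes apoptosis, 3 were higher and 1 lower, against 10.2% and 10.4% of all tested genes. BBC3 and BCL2L11, a pair of BH3-only proteins, rose by 0.27 and 0.21 on the log2 scale (edgeR adjusted p = 0.00934 and 0.0372), while PMAIP1, also a BH3-only protein, fell by 0.67 (adjusted p = 6.84e-04). The call for BCL2L11 was lost with DESeq2 (adjusted p = 0.0829), with limma (0.139 and 0.133) and without any library but siEIF1 3 (0.0544 to 0.131).

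**Figure D4:**
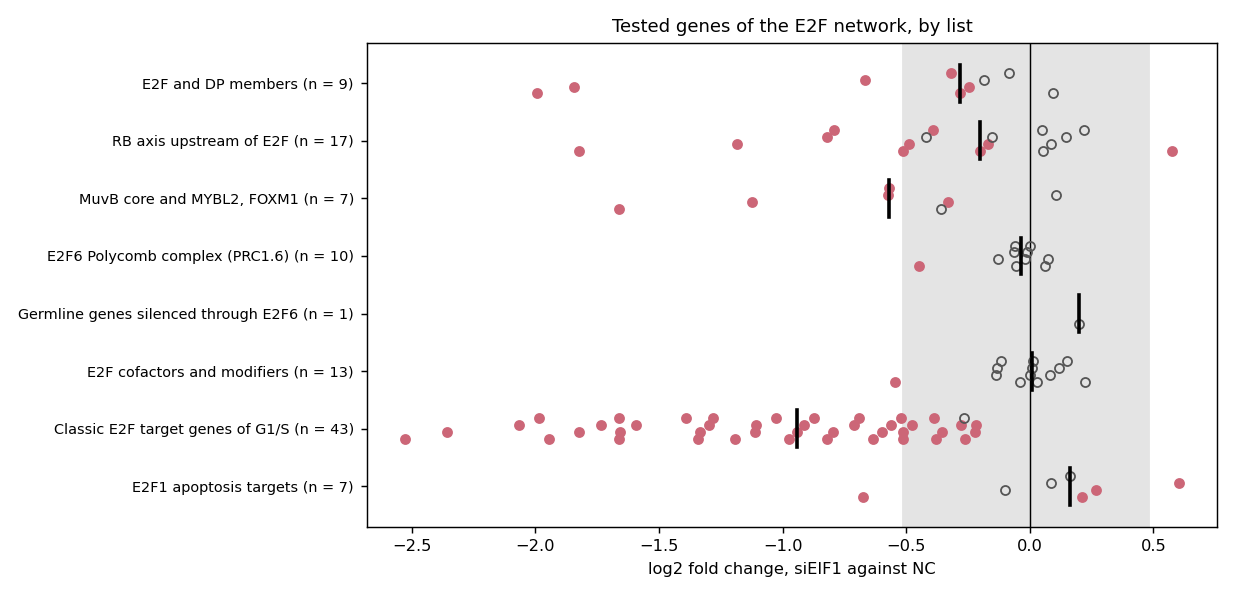
Log2 fold change, siEIF1 against NC (x axis), of every tested gene of each list (points, filled where the adjusted p is under 0.05), with the list median as a vertical bar and the 5th to 95th percentile of all tested genes in grey. The G1/S targets spread from -2.53 to -0.22 around a median of -0.94, while the Polycomb complex stays near 0 apart from RNF2.

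The E2F words were also counted over all tested genes with a promoter in the table, 11225 in all. Of the 10496 with no E2F word 11.5% were lower and 11.9% higher. Of the 697 with 1 word 20.2% were lower and 8.75% higher, and of the 32 with 2 or more, which include E2F1, 17 were lower and 0 higher. The median log2 fold changes of these classes were 0.0030, -0.028 and -0.21. Leaving out the E2F and DP genes and the G1/S targets, 19.2% of the 704 genes with a word were lower and 8.66% higher. These shares were not tested, and the base composition of the promoters was not matched.

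**Figure D5:**
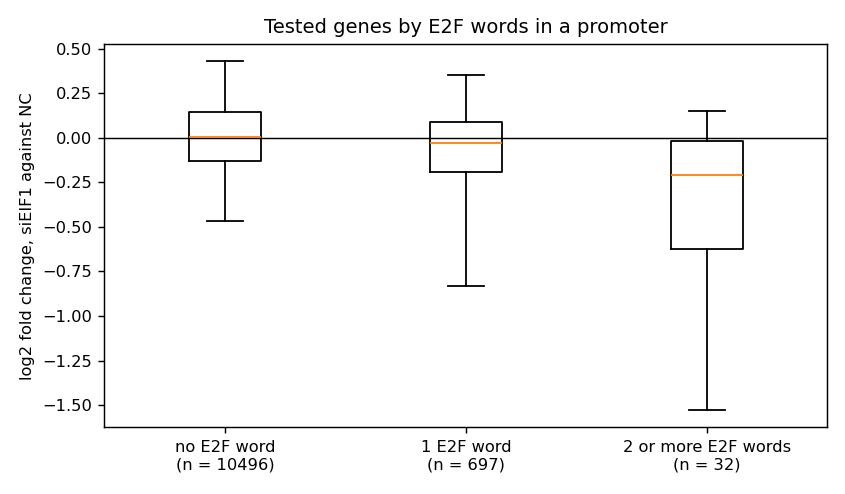
Log2 fold change, siEIF1 against NC (y axis), of tested genes with no, 1, or 2 or more E2F words in a promoter; boxes give the quartiles with the median as a line, and whiskers the 5th and 95th percentiles. The median moves from 0.0030 through -0.028 to -0.21, and the boxes overlap.

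Over the 6 libraries, the genes whose log2 CPM followed a member most closely (Pearson r, as a description, among 13382 or 13383 genes with a mean count of at least 50) were ATG12, UBASH3B and KMT5A for E2F1, with r of 0.999, 0.998 and 0.998. For E2F3 they were RAPH1, SLC25A32 and TSN, for E2F4 SAAL1, RNF220 and NEDD9, and for E2F6 HNRNPM, EMC8 and FANCE. For E2F7 they were NUDT4, RAB14 and SNTB1, and for E2F2 LTV1, PPIF and PARP2. All of these r lay between 0.994 and 0.999. With 3 libraries in each group, r mostly follows the gap between groups, and none of these genes moved as far as E2F1 in log2 fold change (ATG12 had -0.68).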

How the data were processed

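RNA of 3 NC and 3 siEIF1 libraries, described as biological replicates sequenced in 1 run, was read as paired ends, and libraries were grouped by their titles. The authors trimmed reads with FASTX-Toolkit, aligned them to GRCh38 with HISAT2 and deposited raw counts of reads per gene. FPKM values were deposited too, scaled to gene length and mapped fragments. The paper describes the libraries as directional, which keeps the strand of each RNA. The counting program, its strand setting and the annotation release are not given in the sources used here. All sample columns were matched (0 left out). Counts were filtered with filterByExpr and fitted with edgeR 4.0.16 in R 4.3.3 (TMM, quasi-likelihood test, Benjamini-Hochberg over 16749 genes). The SE is the absolute log2 fold change over the square root of the test's F. The 95% intervals are the log2 fold change ± 1.96 SE, which is narrower than the test's own distribution would give. FPKM served for levels. Totals of 26499929 to 31431479 counts leave few reads at E2F2 and E2F8. Tests were checked on simulated data with the same dispersion for every gene and with large changes in well-counted genes only. The check therefore covers neither E2F2 and E2F8 nor changes as small as those of E2F3 to E2F7.

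Loci came from GENCODE and promoters from RefSeq. Named are all members, EIF1, the pocket proteins and cyclins given, up to 3 called genes at each end of a list, and the 3 genes most like each called member. Some genes that fall under this rule are not reported here. Members and lists were chosen with earlier results of these data known, and the motif counts were added after the fits. Alternatives were RLE and upper-quartile scaling, no filter or at least 10 counts per library, DESeq2 1.42.0, limma 3.58.1 on log2(FPKM + 1) and log2(FPKM + 0.1), the replicate number as a block, and leaving out each library.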

Additional observations from a re-analysis of the deposited data

How the results depend on the processing

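The calls for E2F1, E2F2 and E2F4 held under every alternative that could test them (14, 12 and 14), and no member's log2 fold change turned sign. E2F2 was filtered out with at least 10 counts per library and had no adjusted p in DESeq2. The number of lower members was 6, between 4 and 7 under the alternatives and 4 to 6 when a library was left out. The number of higher members was 0 to 1 when a library was left out. Members with a fold below 0.5 numbered 1 with at least 10 counts per library, with DESeq2 and with limma at either pseudocount.

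The difference between the median log2 fold changes of activators and repressors, -1.56, was -0.78 with at least 10 counts per library, where E2F2 is missing, -0.54 with limma on log2(FPKM + 0.1) and 0.019 on log2(FPKM + 1), a reversal where the pseudocount compresses E2F2, the least abundant activator. It was -1.66 to -1.45 when a library was left out. With E2F7 and E2F8 left out of the repressors, the ratio of activators to repressors in FPKM was 0.404 in NC and 0.25 in siEIF1. Lower genes with a fold below 0.5 numbered 219 over all genes and 19 with limma on log2(FPKM + 1).

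Libraries with the same number deviated together with correlations of 0.149, 0.0946 and 0.128, so the numbers were not taken as pairs, although each library correlated best with its own number. With the replicate block 7 members were lower, E2F5 added (adjusted p = 0.0425), and 1 cofactor was higher. Depth limits E2F2 and E2F8: without the filter E2F8 had a log2 fold change of -2.64 ± 0.909 (SE, edgeR adjusted p = 0.0343).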

Other observations

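E2F6P2, a pseudogene of E2F6, and E2F3-IT1, an RNA gene inside E2F3, had 1 count each over the 6 libraries. TFDP1P2, a pseudogene of TFDP1, had 8, 13 and 6 counts in NC and 4, 3 and 6 in siEIF1, against 1775 or more for TFDP1 in every library.

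EMSLR and ERICD, long non-coding RNAs tied to E2F1 and named here after their values were seen, did not pass edgeR's test. EMSLR stood at 2.08, 2.09 and 1.72 FPKM in NC and 1.55, 1.65 and 1.77 FPKM in siEIF1, with overlapping groups (log2 fold change -0.23, adjusted p = 0.139). ERICD stood at 0.52, 0.53 and 0.38 FPKM in NC and 0.60, 0.60 and 0.58 FPKM in siEIF1 (0.33, adjusted p = 0.342).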
